A study of Mus musculus with 8 samples.

Results

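Bhlhe40, Maff, Lbh and Mbd1 are 4 regulators of transcription among the 119 genes of the deposited small intestine (SI) table, and all 4 were found there by their symbols. Each acts on other genes, and they stand for different modes of control. The 119 genes had been chosen by the authors for a difference between knockout (KO) and wild type (WT) on the same 8 libraries, so the values below describe genes already picked for this contrast, and no test on them is independent evidence of a difference. Across the KO libraries Mbd1 was higher than in every WT library, as were 48.7% of the 119 genes. The means of Bhlhe40, Maff and Lbh were lower in KO, but their KO libraries overlapped the WT libraries, where 22.7% of the 119 genes were lower without overlap. The mean of Lbh turned higher when KO libraries were raised by 0.2 on the log2 scale.

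Bhlhe40 (also known as Dec1) is a basic helix-loop-helix repressor that binds E-boxes, belongs to the negative limb of the circadian clock and is induced by hypoxia, cytokines and other stimuli. Maff is a small Maf protein of the basic leucine zipper class. It lacks a transactivation domain, pairs with itself or with CNC factors such as Nrf2 on antioxidant response elements, and is an early stress-responsive gene. Lbh (limb-bud and heart) is a small acidic transcription cofactor known as a target of Wnt signaling, the pathway that maintains stem cells in the intestinal crypt. Mbd1 binds methylated CpG and represses transcription, and it is known to work with the H3K9 methyltransferase Setdb1.

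RNA was sequenced from whole SI of male C57BL/6 mice, with 4 WT and 4 KO libraries. In the KO mice (Villin-Cre Smarcad1 fl/fl) a Cre recombinase driven by the Villin promoter of intestinal epithelial cells removed exons 12 to 14 of Smarcad1, a chromatin remodeler, using 1 targeted mouse line. The WT libraries are labelled wild type only, and the age of the mice and whether WT mice carried floxed or Cre alleles were not given in the sources used here. Muscle, immune and stromal cells of whole tissue keep Smarcad1, and in such bulk samples fewer cells of a type and less RNA per cell cannot be told apart.

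The libraries held 56981718 to 78026422 mapped reads, of which 0.822% to 1.14% lay in the listed genes. RPKM, read numbers scaled for library depth and gene length, were here per kilobase of genomic span, introns included. Smarcad1 itself was 29.5% lower in KO, with a WT mean of 0.334 ± 0.0288 and a KO mean of 0.235 ± 0.0308 RPKM (SD, n = 4 each) and no overlap between the groups. The two-sided exact permutation p was 0.0286, the lowest value possible with groups of 4. Before any result of the 4 regulators, 1 feature of the WT group has to be stated. WT libraries 2 and 3 both lay above WT libraries 1 and 4 in 64 of the 119 genes (53.8%), and in the opposite order in 5. The table holds 10 of 13 Paneth cell markers, 2 of 7 genes known from pancreatic acinar cells, 1 of 9 enterocyte markers and 0 of 6 smooth muscle markers. The labelled tissue could therefore be checked mainly through its Paneth cells.

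The promoter windows of Maff and Lbh are shown, searched for short DNA motifs. They are RefSeq sequences of build GRCm38.p6, from 250 bases before to 50 bases after a transcript start. Windows of 2 of the 4 genes were analysed, and Mbd1 was left out of this step. Capitals mark the matches of 5 motifs searched on both strands: the E-box CACGTG, the cAMP response element TGACGTCA, the TATA box TATAAA, the TCF/LEF site ATCAAAG of Wnt signaling and the AP-1 site TGACTCA. For Maff, with 3 annotated windows, the one nearest to the start of the counted gene is printed (chr15:79347270-79347569, plus strand). The Lbh window (chr17:72918055-72918354, plus strand) starts its transcript at the first base of the counted gene.
Maff: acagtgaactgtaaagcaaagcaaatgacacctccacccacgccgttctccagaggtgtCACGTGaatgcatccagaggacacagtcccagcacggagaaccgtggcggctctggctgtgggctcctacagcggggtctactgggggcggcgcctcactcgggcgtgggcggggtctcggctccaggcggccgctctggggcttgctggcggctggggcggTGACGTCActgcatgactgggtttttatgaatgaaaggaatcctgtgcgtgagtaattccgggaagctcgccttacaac
Lbh: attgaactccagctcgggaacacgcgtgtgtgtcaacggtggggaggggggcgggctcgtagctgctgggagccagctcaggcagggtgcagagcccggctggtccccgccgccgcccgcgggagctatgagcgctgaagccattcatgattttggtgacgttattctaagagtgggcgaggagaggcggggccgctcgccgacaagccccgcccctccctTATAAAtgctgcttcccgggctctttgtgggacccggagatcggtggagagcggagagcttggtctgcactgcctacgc

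The Maff window holds 1 E-box, the motif that Bhlhe40 is known to bind, from base -191, and 1 cAMP response element from base -29 relative to the transcript start. Of all 32851 mouse windows of this length, 7.15% hold the E-box and 1.79% the cAMP response element. The Lbh window holds a TATA box from base -29, as do 13.6% of all windows. Neither window matched the TCF/LEF site, found in 3.73% of windows, or the AP-1 site, found in 5.20%. Both are rich in CpG, with 21 in Maff and 25 in Lbh against a median of 7. These matches describe letters in the window, and whether a factor binds there was not measured.

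Bhlhe40 (ENSMUSG00000030103, chromosome 6, 108660629 to 108666925, plus strand, GRCm38) had between 3130 and 6546 reads per library. Its WT libraries 1 to 4 measured 8.72, 17.9, 16.1 and 11.0 RPKM. The KO libraries measured 12.7, 8.91, 9.06 and 9.60 RPKM. WT libraries 2 and 3 stood above every KO library, while WT library 1 stood below every KO library and WT library 4 fell within the KO range. The WT mean was 13.4 ± 4.28 RPKM and the KO mean 10.1 ± 1.78 RPKM (SD, n = 4 each), a ratio of 0.749. The log2 change of -0.37 ± 0.23 (SE) had a 95% interval from -0.88 to 0.14 and did not pass the test (limma adjusted p = 0.152). Without WT library 1 the change was -0.56 and passed (limma adjusted p = 0.0250), and without WT library 2 it was -0.21 and did not (limma adjusted p = 0.368). The call was also gained when libraries were rescaled, as described further on, or KO libraries lowered by 0.2 on the log2 scale. The first 306 bases of the counted gene also lie in the antisense gene 0610040F04Rik, and reads there cannot be assigned.

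Maff (ENSMUSG00000042622, chromosome 15, 79347541 to 79359072, plus strand) rested on 808 to 1682 reads per library, the fewest of the 4. Its WT libraries 1 to 4 measured 1.23, 2.51, 2.02 and 1.66 RPKM. The KO libraries measured 1.53, 1.47, 1.37 and 1.75 RPKM. As for Bhlhe40, the highest values were those of WT libraries 2 and 3 and the lowest that of WT library 1, and the 4 KO values lay between them. WT libraries averaged 1.85 ± 0.543 RPKM and KO libraries 1.53 ± 0.158 RPKM (SD, n = 4 each), a ratio of 0.826. The log2 change of -0.22 ± 0.19 (SE, 95% interval -0.65 to 0.21) did not pass the test (limma adjusted p = 0.283). It came to -0.39 without WT library 1 (limma adjusted p = 0.0400) and to -0.07 without WT library 2 (limma adjusted p = 0.701).

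Lbh (ENSMUSG00000024063, chromosome 17, 72918305 to 72941942, plus strand) varied least of the 4 genes among WT libraries as deposited, though not among KO libraries. Its WT libraries 1 to 4 measured 2.26, 2.64, 2.64 and 2.41 RPKM. The KO libraries measured 2.53, 2.20, 2.50 and 2.16 RPKM. KO libraries 2 and 4 lay just below the WT range, and KO libraries 1 and 3 within it. WT libraries averaged 2.49 ± 0.185 RPKM and KO libraries 2.35 ± 0.192 RPKM (SD, n = 4 each), a ratio of 0.943. The log2 change of -0.08 ± 0.10 (SE, 95% interval -0.31 to 0.15) did not pass the test (limma adjusted p = 0.453). Leaving out 1 library moved it between -0.12 without WT library 1 and -0.046 without KO library 4, with no call in any of these fits. By size it ranked 118th of the 119 listed genes.

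Mbd1 (ENSMUSG00000024561, chromosome 18, 74268272 to 74282685, plus strand) had 1854 to 4354 reads per library. Its WT libraries 1 to 4 measured 2.26, 3.17, 3.07 and 2.32 RPKM. The KO libraries measured 4.02, 3.56, 3.73 and 3.87 RPKM. All 4 KO libraries lay above all 4 WT libraries, and the lowest KO value exceeded the highest WT value by 0.386 RPKM. From a WT mean of 2.70 ± 0.483 RPKM it rose to 3.79 ± 0.196 RPKM in KO (SD, n = 4 each), a ratio of 1.40. The log2 change of 0.49 ± 0.13 (SE, 95% interval 0.19 to 0.79) passed the test (limma adjusted p = 0.00883) and passed in each fit that left out 1 library.

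**Figure D1:**
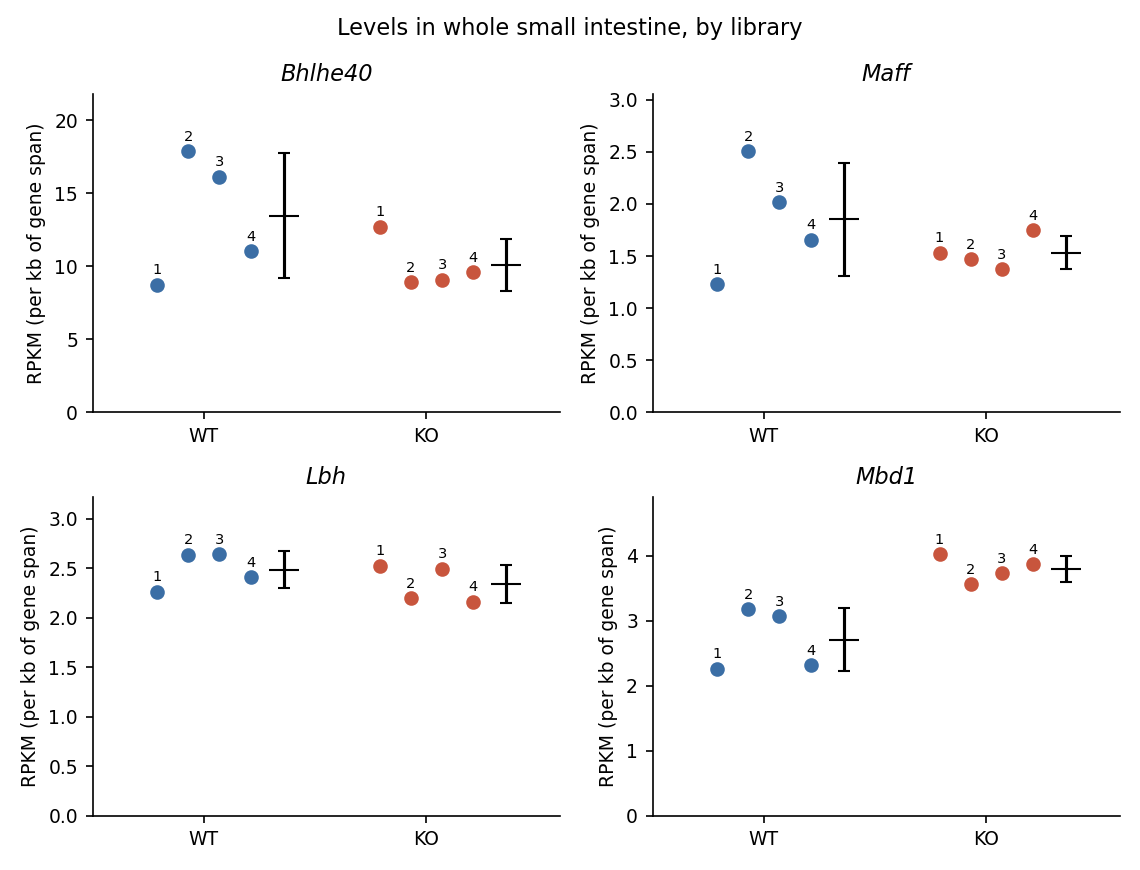
RPKM (per kilobase of genomic span, linear axis from 0) of Bhlhe40, Maff, Lbh and Mbd1 in each library. Points are single libraries labelled by replicate number, and bars give the mean ± SD of 4 libraries. The WT points of Bhlhe40 and Maff enclose or overlap the KO points, those of Lbh overlap them, and the 4 KO points of Mbd1, at 3.56 to 4.02 RPKM, lie above its highest WT point of 3.17 RPKM.

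As deposited, 1 of the 4 regulators passed the test, where 79.0% of all 119 listed genes did. In the higher direction this was Mbd1, against 48.7% of listed genes that were called higher, and the same share, 48.7%, had groups that did not overlap with KO higher. None of the 3 genes with a lower mean passed, against 30.3% of listed genes called lower, and none had groups apart, against 22.7% lower and apart. By unadjusted limma p, 0 of these 3 genes were under 0.05 as well. Across the table the median log2 change was -0.39 in the 60 lower genes and 0.72 in the 59 higher genes, so that each of the 4 changes was smaller than the median of its direction.

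Replicate spread differed between the genes. The coefficient of variation (SD divided by the mean) in WT was 31.9% for Bhlhe40 and 29.3% for Maff, against a median of 18.2% over the 77 genes with a mean of at least 0.5 RPKM. It was 17.9% for Mbd1 and 7.45% for Lbh, which ranked 74th from the widest. The highest WT library exceeded the lowest 2.05-fold for Bhlhe40, 2.04-fold for Maff, 1.41-fold for Mbd1 and 1.17-fold for Lbh. In KO the coefficient of variation was 17.7% for Bhlhe40, 10.4% for Maff, 8.20% for Lbh and 5.17% for Mbd1, against a median of 13.1%. Counting error alone, at the fewest reads in any library, came to 1.79% for Bhlhe40, 3.52% for Maff, 1.81% for Lbh and 2.32% for Mbd1. A difference in spread between WT and KO was not tested.

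All 4 genes had WT libraries 2 and 3 above WT libraries 1 and 4, where 53.8% of all listed genes did. Relative to the WT mean on the log2(RPKM + 0.1) scale, Bhlhe40 deviated by -0.56, 0.47, 0.32 and -0.23 in WT libraries 1 to 4. Maff deviated by -0.51, 0.46, 0.16 and -0.11 and Mbd1 by -0.23, 0.24, 0.19 and -0.20. Lbh deviated least, by -0.13, 0.08, 0.09 and -0.04. The median over the 77 genes was -0.18, 0.15, 0.14 and -0.11, in the same order of libraries. Bhlhe40 and Maff therefore moved further than the median gene in WT libraries 1 and 2, and Lbh less far. Among KO libraries, Bhlhe40 was highest in library 1, at 0.35, and Maff in library 4, at 0.18.

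**Figure D2:**
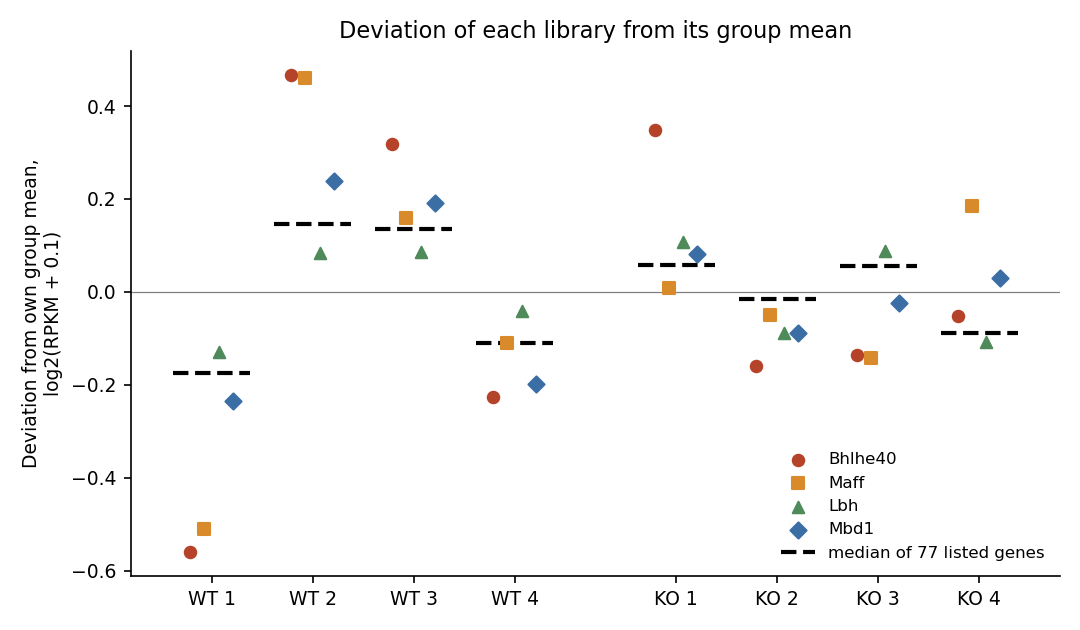
Deviation of Bhlhe40, Maff, Lbh and Mbd1 from their own group mean in each library, in log2(RPKM + 0.1). Markers are single genes and dashed bars the median over 77 listed genes with a mean of at least 0.5 RPKM. In WT libraries 1 and 4 all 4 genes lie below 0 and in WT libraries 2 and 3 above it, as does the median, while in KO the genes lie on both sides of 0 in libraries 3 and 4, above 0 in library 1 and below it in library 2.

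Because the order of WT libraries was shared by many listed genes, levels were also compared within each library as ratios, which do not depend on how libraries are scaled. Mbd1 relative to Bhlhe40 (log2 ratio of RPKM) was -1.95, -2.49, -2.39 and -2.25 in WT and -1.66, -1.32, -1.28 and -1.31 in KO, 1.84-fold higher in KO on average. Mbd1 relative to Maff was 0.88, 0.34, 0.61 and 0.48 in WT and 1.39, 1.28, 1.44 and 1.15 in KO, a 1.67-fold difference. Mbd1 relative to Lbh ranged from -0.06 to 0.27 in WT and from 0.58 to 0.84 in KO, a 1.51-fold difference. In these 3 ratios no KO library overlapped a WT library (p = 0.0286 each by two-sided exact permutation, the minimum, and p = 0.0571 adjusted over the 6 pairs of genes), so they missed the threshold once adjusted. All these genes had been selected for a difference on the same libraries, Mbd1 with a higher KO mean and the others with lower ones. Separation of their ratios was thus partly built in, and the share of such pairs apart over all listed genes is not given here.

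The 3 ratios among Bhlhe40, Maff and Lbh overlapped between the groups. Maff relative to Bhlhe40 differed by 0.14 (log2, exact permutation p = 0.314, adjusted p = 0.377), Lbh relative to Bhlhe40 by 0.29 (exact permutation p = 0.257, adjusted p = 0.377) and Lbh relative to Maff by 0.15 (exact permutation p = 0.514, adjusted p = 0.514). Single libraries weighed on these 3 differences. Without 1 library, Lbh relative to Maff ranged from 0.015 (without WT library 2) to 0.28 (without WT library 1), Maff relative to Bhlhe40 from 0.057 (without KO library 4) to 0.25 (without KO library 1), and Lbh relative to Bhlhe40 from 0.16 (without WT library 2) to 0.43 (without WT library 1).

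**Figure D3:**
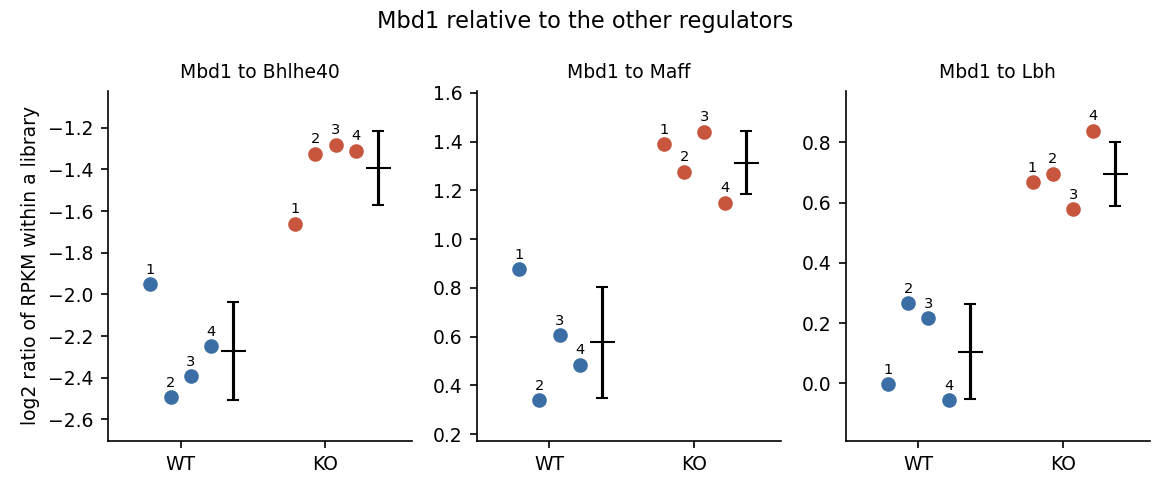
Level of Mbd1 relative to Bhlhe40, Maff and Lbh within each library, as the log2 ratio of RPKM. Points are libraries labelled by replicate number, bars the mean ± SD of 4 libraries, and each panel has its own vertical axis. In each panel the 4 KO points lie above the 4 WT points, with mean differences of 0.88, 0.74 and 0.59 on the log2 scale.

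Scaling bore on the 3 lower genes. Dividing each library by its median ratio over the listed genes gave factors of 0.825 and 0.840 for WT libraries 1 and 4, 1.04 each for WT libraries 2 and 3, and 0.997 to 1.08 for KO. With these factors all 4 genes passed the test, as did 115 of 119 listed genes, with log2 changes of -0.53 for Bhlhe40, -0.37 for Maff, -0.23 for Lbh and 0.34 for Mbd1 (limma adjusted p = 0.0155, 0.0371, 0.0172 and 0.00371). Lbh then measured 2.67 ± 0.160 in WT and 2.26 ± 0.0999 in KO and Mbd1 2.88 ± 0.156 and 3.66 ± 0.186 (rescaled RPKM, SD, n = 4 each). Both had no overlap, whereas the groups of Bhlhe40 and Maff still overlapped. The share of all listed genes with groups apart after rescaling is not given here, so this is no trait particular to Lbh and Mbd1. The WT coefficient of variation of Mbd1 came down to 5.43% and that of Bhlhe40 to 20.6%. These factors were taken from genes that had been selected for differing between the same libraries, and genes outside the table were not analysed here. Which scaling holds was therefore not settled. Calls in the higher direction numbered 58 in both fits, while calls in the lower direction numbered 36 as deposited and 57 when rescaled, so that higher genes made up 61.7% and 50.4% of calls.

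**Figure D4:**
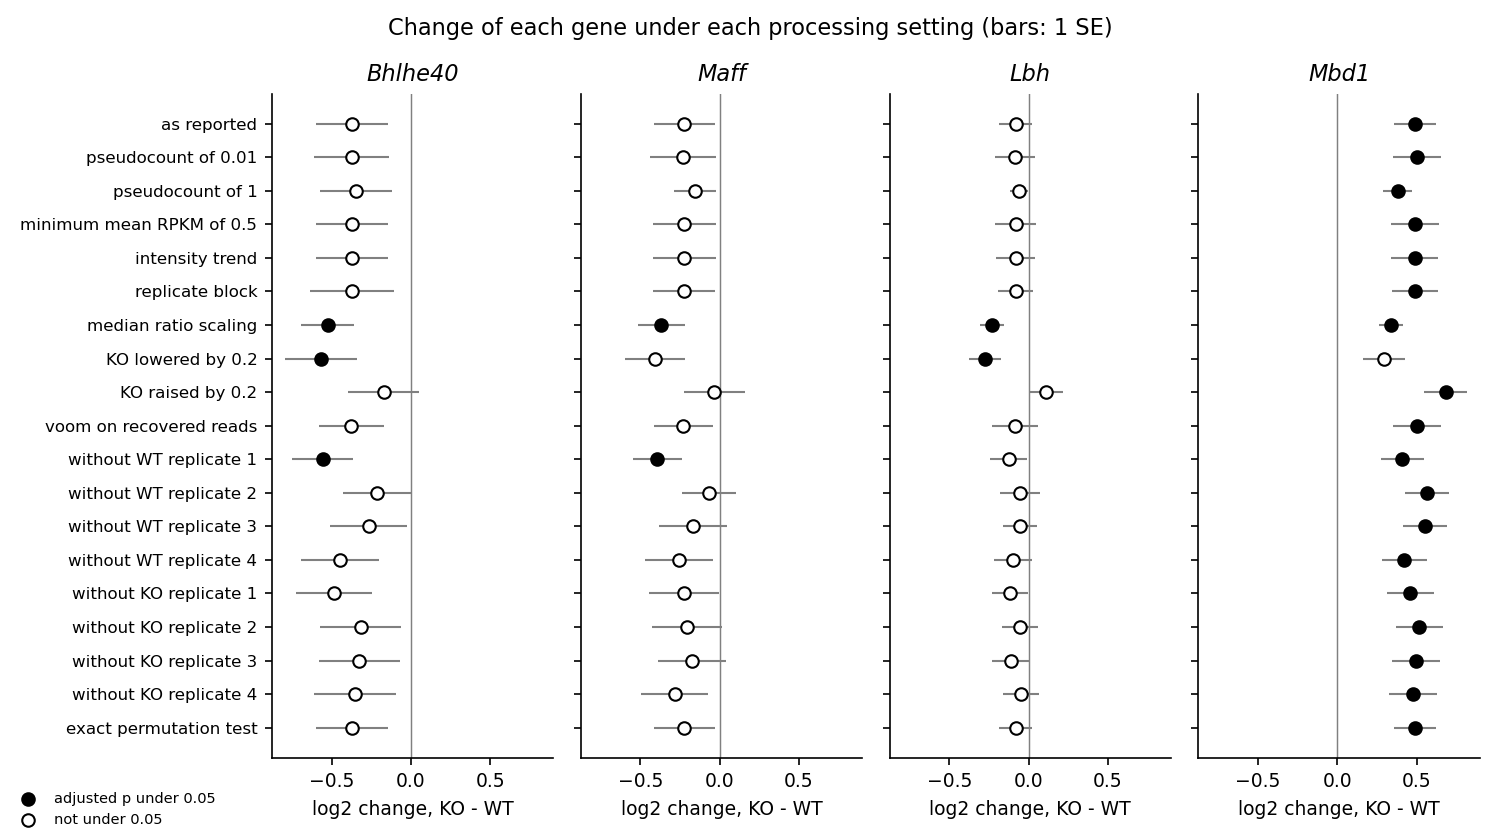
Log2 change (KO minus WT) of the 4 genes under each processing setting, with bars of 1 SE from the fit. Filled points have an adjusted p under 0.05 and open points do not, and the 4 panels share a horizontal axis. Mbd1 is above 0 in each setting, Bhlhe40 and Maff below 0 in each, and Lbh lies near 0, at 0.11 when KO libraries are raised by 0.2.

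Levels between genes can be set side by side only per length, and the order depended on the length used. Per kilobase of genomic span, the WT mean was highest for Bhlhe40, at 13.4 RPKM, with Mbd1, Lbh and Maff between 2.70 and 1.85. Merged exons make up 74.7% of the span in Bhlhe40, 41.5% in Mbd1, 20.9% in Maff and 13.6% in Lbh. The same reads per kilobase of exon gave 18.3 for Lbh, 8.85 for Maff and 6.51 for Mbd1 in WT, with Bhlhe40 close to Lbh, and 17.3 for Lbh, 13.5 for Bhlhe40, 7.31 for Maff and 9.13 for Mbd1 in KO. The study's methods describe counting over exons of merged transcripts, whereas the deposited RPKM gave whole reads with the genomic span as length. If exon reads alone were counted, the values per kilobase of exon are the levels of the transcripts, and those per span are lowered by intron length.

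Genes with the most similar course were sought by Pearson's r of within-group deviations of log2(RPKM + 0.1) over the 8 libraries, among the 77 genes with at least 0.5 RPKM. The points share libraries and depth, so r is given as a description. Nearest to Bhlhe40 were Mbd1 (r = 0.94, Spearman's rho = 0.98) and Ifrd1 (r = 0.92, rho = 0.95), a stress-responsive transcription cofactor. Nearest to Maff were Adm (r = 0.94, rho = 0.90), the hypoxia-inducible peptide hormone adrenomedullin, and Ifrd1 (r = 0.91, rho = 0.74). For Mbd1 they were Ifrd1 (r = 0.97, rho = 0.98) and Bhlhe40. Without WT libraries 1 and 2, which lay farthest out, r stayed at 0.88 for Bhlhe40 with Mbd1, 0.84 for Maff with Adm and 0.96 for Mbd1 with Ifrd1, but was 0.77 for Bhlhe40 with Ifrd1 and 0.65 for Maff with Ifrd1. Within KO libraries alone r for these pairs, in the same order, was 0.85, 0.83, 0.87, 0.58 and 0.22.

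Lbh kept a different company. Its nearest genes were Fam46c (r = 0.88, rho = 0.90), of a family of poly(A) polymerases, and Fzd9 (r = 0.85, rho = 0.67), a Frizzled receptor of Wnt signaling. Among the 4 regulators, r was 0.94 for Bhlhe40 with Mbd1, 0.87 for Maff with Mbd1, 0.86 for Bhlhe40 with Maff, 0.78 for Bhlhe40 with Lbh, 0.71 for Lbh with Mbd1 and 0.48 for Maff with Lbh (rho = 0.98, 0.86, 0.83, 0.62, 0.57 and 0.17). Without the 2 libraries farthest out r came to 0.55 for Bhlhe40 with Maff and -0.14 for Maff with Lbh, and stayed at 0.66 or above for the other pairs. Within KO libraries alone r for these pairs, in the order first given, was 0.85, 0.46, 0.21, 0.56, 0.45 and -0.58. After rescaling by the median ratio, r was 0.83, 0.81 and 0.71 for the first 3 of these pairs but -0.29, -0.61 and -0.54 for the pairs with Lbh. The positive r of Lbh with the other 3 regulators was thus present only before libraries were rescaled. That with Fzd9 went from 0.85 to 0.12 on rescaling, while that with Fam46c stayed at 0.82.

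The genes known to act with these regulators were mostly not among the listed genes. Of 19 circadian clock genes the table held 1, Bhlhe40, and of 15 small Maf and CNC genes and targets it held 1, Maff. Of 24 stress- and stimulus-responsive genes it held 8, Bhlhe40 and Maff among them. These lists were drawn up with earlier results of these data known. How many of their genes were listed, and in which direction, is therefore no independent evidence about such genes. Of these 8, 7 had a lower and 1 a higher mean in KO, beside 60 lower and 59 higher of all 119 genes. Their median log2 change was -0.30 against -0.07 over all listed genes. By limma 1 of the 8 was called lower and 1 higher, beside 30.3% called lower and 48.7% called higher of all listed genes. Adm fell from 3.56 ± 1.18 to 1.98 ± 0.344 RPKM (limma adjusted p = 0.0166; SD, n = 4 each), with overlapping groups. Irs2, the insulin receptor substrate, rose from 0.743 ± 0.0726 to 1.18 ± 0.153 RPKM (limma adjusted p = 0.00238; SD, n = 4 each), with no overlap. Ifrd1 measured 2.18 ± 0.785 RPKM in WT and 1.57 ± 0.0811 in KO (limma adjusted p = 0.140). Tnfaip3 (an inhibitor of NF-kB signaling), Ccng1 (cyclin G1) and Zfand2a (an arsenite-inducible gene) did not pass either, at log2 changes of -0.14, -0.26 and -0.33 (limma adjusted p = 0.419, 0.101 and 0.153). All of the group but Irs2 had WT libraries 2 and 3 above WT libraries 1 and 4.

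Around Lbh, 3 of 17 Wnt pathway genes were in the table, all with a lower mean in KO, as were 60 of all 119 genes. Of the 3, 1 was called lower, near the 30.3% of all listed genes called lower. Fzd9 fell from 1.34 ± 0.334 to 0.915 ± 0.267 RPKM (limma adjusted p = 0.0485), with overlapping groups. Ascl2, a basic helix-loop-helix factor of intestinal stem cells, measured 2.58 ± 0.767 RPKM in WT and 1.85 ± 0.127 in KO (limma adjusted p = 0.0897).

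Around Mbd1, 3 of 16 genes of methyl-CpG binding and H3K9-linked silencing were in the table, and 2 were called higher and 1 lower. Besides Mbd1, Zfp809, a KRAB zinc finger protein that silences retroviral DNA, rose from 1.59 ± 0.304 to 2.84 ± 0.315 RPKM (SD, n = 4 each; limma adjusted p = 0.00144). The lower one was the deleted Smarcad1. Of 6 other transcription regulators, picked because the table holds them, 4 zinc finger factors were called higher and none lower, beside 48.7% called higher and 30.3% called lower over all listed genes. They were Zfp809, Klf11 (log2 change 0.68, limma adjusted p = 0.00122), Patz1 (0.55, limma adjusted p = 0.00283) and Zfp37 (1.00, limma adjusted p = 5.70e-04), each with no overlap between the groups. The other 2, Ascl2 and Ifrd1, had lower means and were not called.

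Markers of other cells changed in the same libraries. Only genes selected for a difference are listed, so markers without one would not appear among them. Of all listed genes 30.3% were called lower and 48.7% higher. All 10 Paneth cell markers were called lower in KO, with a summed level of 3565 to 4984 RPKM in WT and 2870 to 3795 RPKM in KO. Clps and Pnliprp2, the only 2 listed of 7 genes known from pancreatic acinar cells, were called lower too. They summed to 26.2 to 37.1 RPKM in WT and 20.1 to 27.0 RPKM in KO. Which cells of the tissue expressed these 2 genes was not measured, so they do not mark a separate cell type here. Of 11 lymphoid and myeloid markers 2 were listed, Klrb1c of natural killer cells, called higher at 0.0703 ± 0.0149 RPKM in WT and 0.382 ± 0.139 in KO, and Siglece of myeloid cells, called lower at 0.307 ± 0.0539 and 0.233 ± 0.0106 (SD, n = 4 each). Treh, an enterocyte brush border enzyme, was called higher, at 4.24 to 7.05 RPKM in WT and 7.98 to 13.3 RPKM in KO. The part of such shifts in the values of Bhlhe40, Maff, Lbh and Mbd1 was not tested.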

How the data were processed

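The table was deposited as RPKM per library, without counts. The authors trimmed adapters with Trim Galore 0.4.1, mapped reads to GRCm38 with HiSat2 2.0.1, counted uniquely mapped reads over exons of merged isoforms in SeqMonk and kept genes under an FDR of 0.05 by DESeq2. Their FDR and group mean columns were not used. RPKM multiplied by genomic span and a fitted depth came out whole to a tolerance of 0.05 reads in 100% of 939 values above 0, and all 8 planted depths were recovered on simulated data.

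All 119 genes were fitted on log2(RPKM + 0.1) with limma 3.58.1 in R 4.3.3 (lmFit, eBayes, no covariates, Benjamini-Hochberg over 119 genes, threshold 0.05). This scale understates changes of low genes. On simulated data of 119 genes, 98.3% of log2 changes of 1 were recovered. No smaller change was planted, so this rate does not cover the smaller changes of the 4 regulators. Smarcad1 and the ratios were compared by exact permutation tests (scipy 1.17.1, Python 3.11.15). Nothing states that replicates are separate animals beyond their labels, so p-values judge a group difference against the variation among these libraries. Same-numbered WT and KO libraries deviated together weakly or not at all (r = 0.27, 0.21, -0.11 and -0.03 across 77 genes), so numbers were not used as pairs. The regulators, gene lists and motifs were chosen with earlier results of these data known. Named besides the regulators and Smarcad1 were listed genes of the gene lists and the 2 most similar genes of each regulator. The rule also took genes overlapping a regulator. Cell type markers came from fixed lists. Alternatives were other pseudocounts, a level filter, an intensity trend, an exact test, a replicate block, other scalings, voom on recovered reads, a stricter threshold and leaving out each library.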

Additional observations from a re-analysis of the deposited data

Results flagged for a closer look

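Of 24 groups of 4 libraries examined for a single library far from the others, covering the 4 regulators, their 6 ratios, Smarcad1 and depth, 1 passed Dixon's 95% critical value for 4 samples, where chance gives about 1.2. The log2 ratio of Mbd1 to Bhlhe40 in KO library 1 was -1.66 against -1.32 to -1.28 in the other KO libraries, with a gap of 0.887 of the range. Bhlhe40 itself was highest of the KO libraries there, at 12.7 RPKM, with a gap of 0.818 of the range that did not pass. No cause was tested.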

How the results depend on the processing

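Bhlhe40, Maff and Mbd1 kept their direction in all 18 recalculations, and Lbh in 17. With libraries rescaled by the median ratio over listed genes, the changes of Bhlhe40, Maff and Lbh passed, at -0.53, -0.37 and -0.23, and 4 regulators were called. With KO libraries lowered by 0.2 (log2), Bhlhe40 at -0.57 and Lbh at -0.27 passed, Mbd1 at 0.29 did not (limma adjusted p = 0.0571), and 2 regulators were called. Raised by 0.2, Lbh was at 0.11. These shifts move all genes by construction. Over the fits without 1 library the change of Bhlhe40 ranged from -0.56 to -0.21 and that of Maff from -0.39 to -0.068, and 1 to 3 regulators were called, 3 only without WT library 1. The limma adjusted p of Mbd1 ranged from 0.00136 to 0.0571 over its recalculations. Of all listed genes, 94 passed as reported, 56 among the 77 with at least 0.5 RPKM, where fewer genes were tested, 62 at a threshold of 0.01, 115 when rescaled, and 104 and 68 with KO lowered and raised by 0.2, of which 52 and 58 were higher in KO. The exact permutation test gave 85. With the replicate number as a block 90 genes passed, among the regulators Mbd1 (log2 change 0.49, limma adjusted p = 0.0241), and this replicate block changed no call of the 4. Differences of the 6 ratios and of Smarcad1 kept their sign when any 1 library was left out, where an exact test of 3 against 4 cannot go below 0.0571. Those of the 3 ratios of Mbd1 and of Smarcad1 moved by less than 1.5 times, and those among Bhlhe40, Maff and Lbh by more. Depth did not limit these genes, with at least 808 reads in each library.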
